A study of Mus musculus with 12 samples.

Results

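The Id genes encode the inhibitors of DNA binding, a mouse family with 4 members that are described here by every probe the platform annotation assigns to Id1, Id2, Id3 or Id4. These were 7 of the 45281 probes on the array, with 1 for Id1, 3 for Id2, 1 for Id3 and 2 for Id4. Whole testes of mice 10 days old gave the total RNA, and Illumina MouseWG-6 v2 BeadChips, which carry each probe on beads and read it as an intensity, were used to measure it. The 4 KO arrays (SC-RbKO, replicates 1 to 4) came from mice with floxed Rb1, the retinoblastoma gene, deleted on both alleles by Cre recombinase under the promoter of the anti-Müllerian hormone gene. The 3 HET arrays (SC-Rb+/-, replicates 5 to 7) came from mice with the deletion on 1 allele, and the 5 WT arrays (replicates 8 to 12) from mice labelled wild type. That promoter is known to drive Cre in Sertoli cells, the somatic nurse cells of the germ line, and the deletion by cell type was not measured here. Whether WT mice carried Cre or a floxed allele is not stated in the labels. Nor do they say that the RNAs are from separate animals, so a p-value here covers only sample-to-sample spread, which may be technical.

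ID proteins have a helix-loop-helix domain but lack the basic region that contacts DNA. They pair with E proteins and with some tissue-restricted partners and keep them off their DNA sites, the E-boxes, which holds cells in an undifferentiated or cycling state. ID2 is also known to bind the retinoblastoma protein and its relatives. Id1, Id2 and Id3 are induced by BMP signalling through SMAD proteins in many somatic cell types, whereas ID4 marks spermatogonial stem cells in the mouse testis.

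Promoter sequences are shown because RNA levels of BMP pathway genes are given below together with the family. The activity of that pathway was not measured. RefSeq (GRCm38.p6) gave 300-base promoter windows, from 250 bases before to 50 bases after the start site, for 3 of the 4 genes (Id2, Id3 and Id4). Capitals mark GGCGCC, a GC-rich element described in BMP-responsive promoters, and the E-box CANNTG, which E proteins bind. Both motifs read the same on either strand and no matches overlapped. The windows lie at chr12:25096043-25096342 on the minus strand for Id2, at chr4:136143572-136143871 on the plus strand for Id3 and at chr13:48260866-48261165 on the plus strand for Id4, each printed 5′ to 3′ along its gene.
Id2: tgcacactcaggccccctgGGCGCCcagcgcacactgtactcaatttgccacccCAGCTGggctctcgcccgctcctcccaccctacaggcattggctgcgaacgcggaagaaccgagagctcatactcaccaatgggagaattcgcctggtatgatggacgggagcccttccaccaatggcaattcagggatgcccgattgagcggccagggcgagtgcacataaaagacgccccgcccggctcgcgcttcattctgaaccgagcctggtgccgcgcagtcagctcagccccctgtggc
Id3: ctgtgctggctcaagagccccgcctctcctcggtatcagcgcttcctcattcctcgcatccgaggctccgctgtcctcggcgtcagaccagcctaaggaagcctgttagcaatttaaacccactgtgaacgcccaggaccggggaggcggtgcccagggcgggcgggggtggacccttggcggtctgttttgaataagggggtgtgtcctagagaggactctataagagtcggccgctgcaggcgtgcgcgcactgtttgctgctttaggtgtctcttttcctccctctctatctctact
Id4: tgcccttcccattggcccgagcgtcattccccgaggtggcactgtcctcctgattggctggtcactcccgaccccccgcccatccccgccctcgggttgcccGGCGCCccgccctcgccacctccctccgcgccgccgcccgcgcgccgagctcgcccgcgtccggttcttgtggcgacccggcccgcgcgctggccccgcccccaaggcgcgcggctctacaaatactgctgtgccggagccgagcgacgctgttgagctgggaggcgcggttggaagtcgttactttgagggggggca
Searches on both strands covered 4 motifs, chosen after the sequences had been seen, namely the 2 marked in capitals and the CCAAT and TATA boxes. GGCGCC begins 231 bases before the start site of Id2 and 148 bases before that of Id4, and these letters are not in the Id3 window. The Id2 window also holds an E-box, CAGCTG, 196 bases before the start site, and an E-box was not found in the Id3 or Id4 window. The CCAAT box, searched by the letters of its name, begins 159, 120 and 76 bases before the start site in Id2 and 240 and 198 bases before it in Id4, with none in Id3, and the TATA box, searched as TATAAA, was found in none of the 3 windows. Of all 32851 promoter windows of this length in the table, 11.9 percent hold GGCGCC, 72.3 percent an E-box, 37.4 percent a CCAAT box and 13.6 percent a TATA box. GC content is 63.3 percent in the Id2 window, 60.0 percent in the Id3 window and 73.3 percent in the Id4 window.

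Across the 12 arrays, 39.3 to 43.7 percent of probes were detected and median unnormalized intensity was 52.2 to 60.2. HET 6, HET 7 and WT 12 stood apart. Their highest correlation with any other array over detected probes was 0.9754, 0.9843 and 0.9861, against at least 0.991 for each of the other arrays. Their mean log2 level over 14 meiotic prophase genes, relative to the WT mean, was -0.84, 0.69 and 0.64, against -0.29 to 0.08 in the other 9 arrays. Differences of the Id probes without these arrays are given below. The 2 detected Rb1 probes were 0.47 (SE 0.14) and 0.26 (SE 0.15) lower in KO than in WT on the log2 scale (limma adjusted p = 1 for each), and differed by -0.41 and -0.03 between HET and WT (limma adjusted p = 0.47 and 0.95). Between KO and HET they differed by -0.05 and -0.22 (limma adjusted p = 0.93 and 0.70). KO 1 read 7.74 and 9.26, within the WT ranges of 7.63 to 8.15 and 8.83 to 9.31. Whether these probes lie in the deleted part was not analysed here.

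**Figure D1:**
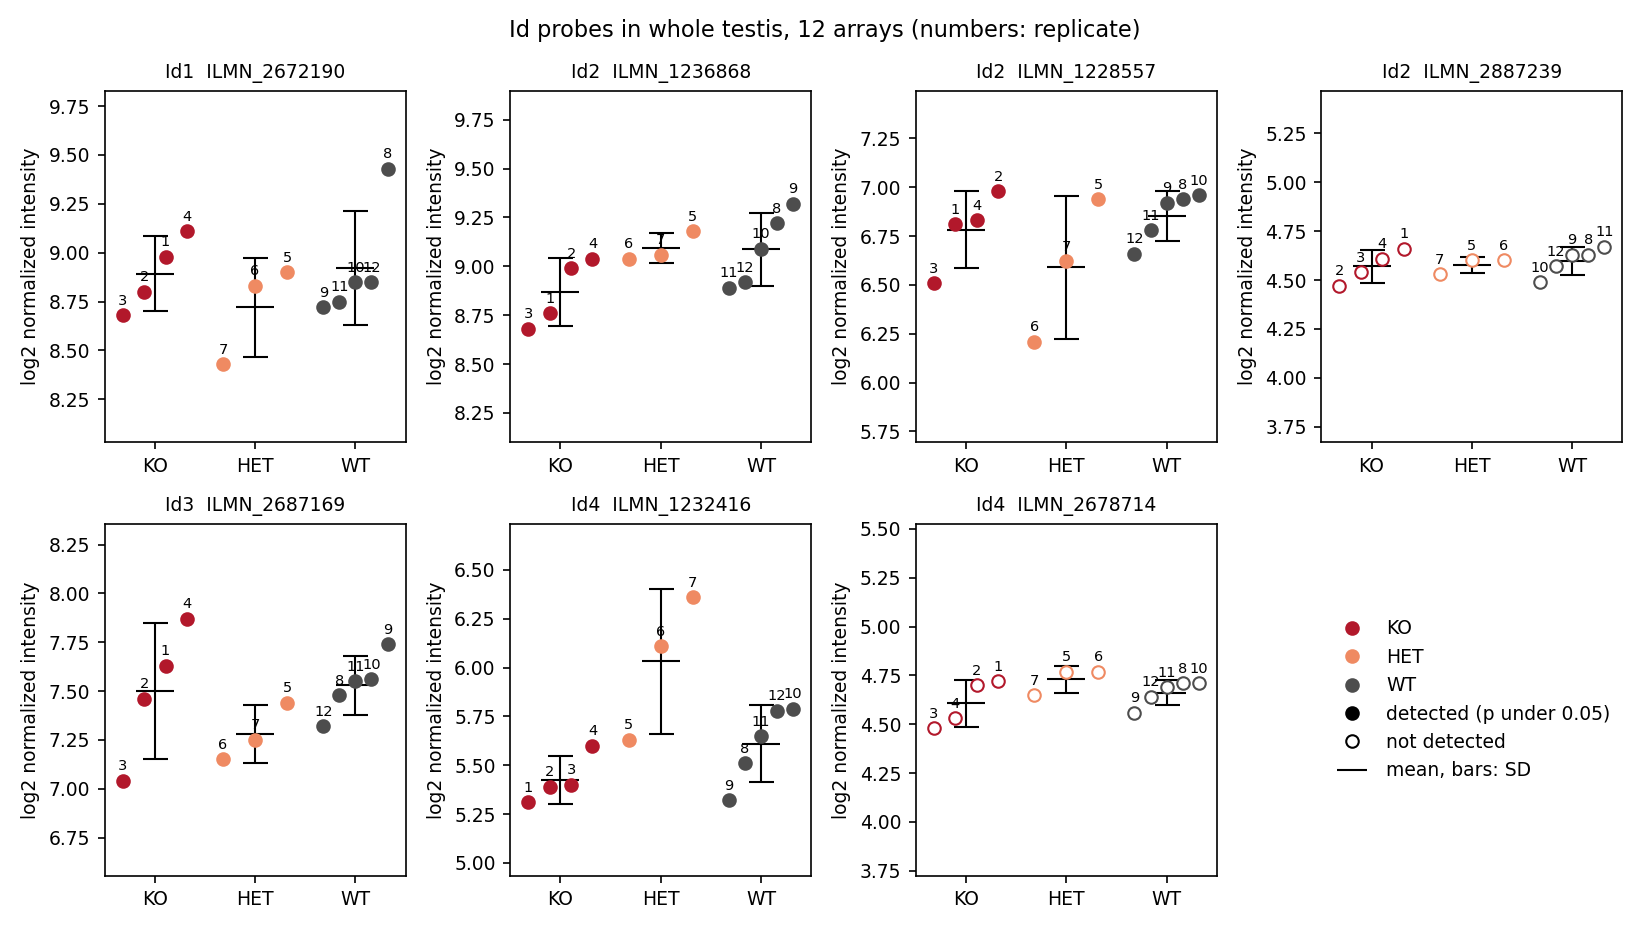
Log2 normalized intensity (y axis) of each of the 7 Id probes in KO, HET and WT arrays (x axis). Each point is an array with its replicate number, filled where the probe was detected, with group means and SD as lines. Of the 7 probes, 5 were detected on all 12 arrays, and for the detected Id4 probe (ILMN_1232416) every HET array lies above every KO array. Points within a group are ordered by level.

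A probe was called detected on an array at a detection p-value under 0.05. By that measure 5 of the 7 probes were detected on all 12 arrays, those of Id1 and Id3, 2 of Id2 and 1 of Id4, and the other 2 were detected on none. All levels below are log2 normalized intensities. Differences are KO minus WT, HET minus WT or KO minus HET on that scale, from 1 limma fit over all 20170 probes detected on at least 3 arrays. A level in whole testis cannot tell fewer cells of a type from less RNA per cell.

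Id1, an inhibitor expressed in endothelial and other somatic cells, was detected on every array. The Id1 probe (ILMN_2672190) read 8.98, 8.80, 8.68 and 9.11 in KO 1 to KO 4, 8.90, 8.83 and 8.43 in HET 5 to HET 7, and 9.43, 8.72, 8.85, 8.75 and 8.85 in WT 8 to WT 12. WT 8 was the highest of the 12 arrays and HET 7 the lowest, and all pairs of groups overlapped. Means were 8.89 ± 0.19 in KO (SD, n = 4), 8.72 ± 0.25 in HET (n = 3) and 8.92 ± 0.29 in WT (n = 5). Id1 in KO differed from WT by -0.03 (95 percent interval -0.36 to 0.31, limma adjusted p = 1), and by 0.10 without WT 8. HET differed from WT by -0.20 (-0.56 to 0.16, limma adjusted p = 0.63), by -0.06 without HET 7 and by -0.07 without WT 8.

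Id2, the member known to bind the retinoblastoma protein, had 2 detected probes that did not move alike. The brighter Id2 probe (ILMN_1236868, annotated to a cDNA record) read 8.76, 8.99, 8.68 and 9.04 in KO 1 to KO 4, 9.18, 9.04 and 9.06 in HET 5 to HET 7, and 9.22, 9.32, 9.09, 8.89 and 8.92 in WT 8 to WT 12. KO 1 and KO 3 lay below every HET and WT array, while KO 2 and KO 4 lay within the WT range. Its means were 8.87 ± 0.17 in KO (n = 4), 9.09 ± 0.07 in HET (n = 3) and 9.09 ± 0.19 in WT (n = 5). The KO minus WT difference of Id2 by this probe was -0.22 (SE 0.11, 95 percent interval -0.46 to 0.03, limma unadjusted p = 0.076, adjusted p = 1). The difference was between -0.27 and -0.15 with each array left out in turn.

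The dimmer Id2 probe (ILMN_1228557, annotated to the RefSeq transcript) read 6.81, 6.98, 6.51 and 6.83 in KO, 6.94, 6.21 and 6.62 in HET, and 6.94, 6.92, 6.96, 6.78 and 6.66 in WT. HET 6 was the lowest array and the groups overlapped. It differed by -0.07 between KO and WT (-0.37 to 0.23) and by -0.26 between HET and WT (-0.59 to 0.07, limma adjusted p = 0.51), where the brighter probe differed by 0.01 (-0.26 to 0.27). The HET minus WT value of the dimmer probe was -0.07 without HET 6. Between KO and HET the dimmer probe differed by 0.19 and the brighter by -0.22, so the 2 probes differed in sign. That rested on HET 6, since the dimmer probe was at 0 and the brighter at -0.25 without it, and they were at -0.16 and -0.31 without WT 12, HET 6 and HET 7. Over 12 arrays the 2 probes had a Pearson r of 0.40. The remaining Id2 probe (ILMN_2887239, annotated to the same RefSeq transcript) had unnormalized intensities of 42.9 to 53.8 and detection p-values of 0.19 to 0.5.

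Id3, like Id1 a BMP-induced inhibitor of somatic cells, read 7.63, 7.46, 7.04 and 7.87 in KO 1 to KO 4, 7.44, 7.15 and 7.25 in HET 5 to HET 7, and 7.48, 7.74, 7.56, 7.55 and 7.32 in WT 8 to WT 12. KO arrays held both the highest and the lowest reading, and the HET arrays lay in the lower part of the range. Means of Id3 were 7.50 ± 0.35 in KO (n = 4), 7.28 ± 0.15 in HET (n = 3) and 7.53 ± 0.15 in WT (n = 5). It differed by -0.03 between KO and WT (-0.35 to 0.28, limma adjusted p = 1), and by 0.12 without KO 3. Between HET and WT it differed by -0.25 (-0.60 to 0.09, limma adjusted p = 0.53).

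Id4, the member that marks spermatogonial stem cells, was lower in KO than in HET by 0.61 on the log2 scale but did not pass correction. The detected Id4 probe (ILMN_1232416, annotated to a cDNA record) read 5.31, 5.39, 5.40 and 5.60 in KO 1 to KO 4, 5.63, 6.11 and 6.36 in HET 5 to HET 7, and 5.51, 5.32, 5.79, 5.65 and 5.78 in WT 8 to WT 12. Probe sequences were not used here, so the match of this probe, and of the brighter Id2 probe, to the RefSeq transcripts was not checked. HET 6 and HET 7 lay above all other arrays, HET 5 lay among the WT arrays, and every KO array lay below every HET array. Means were 5.43 ± 0.12 in KO (n = 4), 6.03 ± 0.37 in HET (n = 3) and 5.61 ± 0.20 in WT (n = 5). The KO minus HET difference was -0.61 (SE 0.16, 95 percent interval -0.96 to -0.25), number 41 of 20170 probes by p-value (limma unadjusted p = 0.0027, adjusted p = 0.62).

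HET minus WT for Id4 was 0.43 (SE 0.16, 95 percent interval 0.09 to 0.76, limma unadjusted p = 0.018, adjusted p = 0.47). KO minus WT was -0.18 (SE 0.14, -0.49 to 0.13, limma adjusted p = 1). The order of the group means was therefore HET, WT and KO, with no neighbouring pair past the threshold. The HET values of Id4 rest on HET 6 and HET 7. Without WT 12, HET 6 and HET 7, the HET minus WT difference was 0.07 and KO minus HET was -0.21 (limma adjusted p = 1 for each), with HET 5 as the only HET array and assumed to vary like the other groups. Without HET 5, which leaves HET 6 and HET 7, the same differences were 0.63 (limma adjusted p = 0.055) and -0.81 (0.051).

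The Id4 probe was close to background, with unnormalized intensities of 70.9 to 106 and detection p-values up to 0.044, against 329 to 760 for the Id1 probe with a detection p-value of 0 on each array. The size of a difference in so dim a probe depends on the background step. Without background correction, KO minus HET was -0.39 and HET minus WT 0.28. The authors' processed values gave the same numbers and are not a separate check. The probe annotated to the RefSeq transcript of Id4 (ILMN_2678714) read 44 to 56.5 with detection p-values of 0.12 to 0.5, so it gives no level for the gene on any array.

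**Figure D2:**
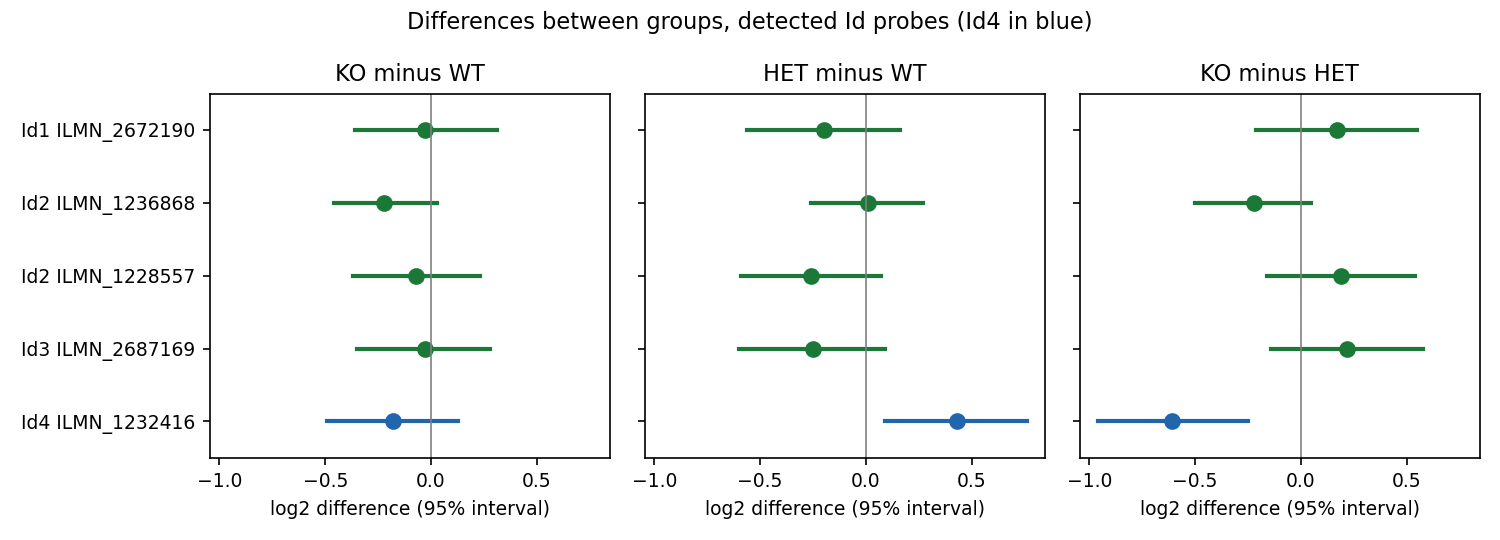
Log2 differences (x axis) of the 5 detected Id probes (rows) for KO minus WT, HET minus WT and KO minus HET, as points with 95 percent intervals, Id4 in blue. Intervals of Id4 exclude 0 for HET minus WT (0.09 to 0.76) and KO minus HET (-0.96 to -0.25) before adjustment over all probes.

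None of the 5 detected Id probes passed the threshold (Benjamini-Hochberg adjusted p under 0.05 over 20170 probes) in KO minus WT, HET minus WT or KO minus HET by limma, where 0 percent of all probes passed in each. At an unadjusted p under 0.05 the counts were 0 of 5 in KO minus WT, where 2.4 percent of all probes reached it, 1 of 5 in HET minus WT, where 10.5 percent did (4.61 percent with HET higher), and 1 of 5 in KO minus HET, where 7.51 percent did (3.05 percent with KO lower). In both, the probe was that of Id4. These shares rest on few arrays, since the 2109 probes of HET minus WT became 4780 without HET 5 and 853 without HET 6, and the 1515 of KO minus HET became 4079 and 981. Groups did not overlap for 0 of 5 probes in KO against WT (1.83 percent of all probes), 0 of 5 in HET against WT (2.86 percent) and 1 of 5 in KO against HET, the Id4 probe (5.57 percent, and 2.46 percent with KO below HET). Over the 5 probes, 95 percent intervals of KO minus WT lay between -0.49 and 0.31. The comparisons share arrays, so that low or high HET readings enter both HET minus WT and KO minus HET.

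Set side by side, Id1 and Id3 were below WT in HET arrays on average and Id4 above it, with none of these differences past the threshold. In HET minus WT, Id1 (-0.20), the dimmer Id2 probe (-0.26) and Id3 (-0.25) were below 0, the brighter Id2 probe was at 0.01, and Id4 was at 0.43, which is 2 of 5 above 0 against 49.4 percent of all probes. Without WT 12, HET 6 and HET 7, these HET minus WT values were -0.04 for Id1, 0.04 for the dimmer Id2 probe, -0.15 for Id3, 0.05 for the brighter Id2 probe and 0.07 for Id4. In KO minus HET, Id1 (0.17), the dimmer Id2 probe (0.19) and Id3 (0.22) were above 0, and Id4 (-0.61) and the brighter Id2 probe (-0.22) were below, which is 3 of 5 above 0 against 51 percent of all probes. Without the same arrays, KO minus HET was -0.01 for Id1, -0.16 for the dimmer Id2 probe, 0.06 for Id3, -0.21 for Id4 and -0.31 for the brighter Id2 probe. In KO minus WT all 5 detected probes were below 0, from -0.22 to -0.03, where 50.8 percent of all probes lay above 0. Without KO 3, Id1 (0.04), the dimmer Id2 probe (0.02) and Id3 (0.12) were above 0, which leaves 2 of 5 below it.

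For each array, the level of Id4 relative to its WT mean was set against the mean of Id1, Id2 (brighter probe) and Id3 relative to theirs. Id4 minus that somatic mean was -0.24, -0.12, 0.17 and -0.17 in KO 1 to KO 4, 0.03, 0.67 and 1.02 in HET 5 to HET 7, and -0.29, -0.37, 0.19, 0.15 and 0.32 in WT 8 to WT 12. The 2 largest values belonged to HET 6 and HET 7, and HET 5 lay inside the KO and WT ranges. Group means were -0.09 ± 0.18 in KO (n = 4), 0.57 ± 0.50 in HET (n = 3) and 0 ± 0.31 in WT (n = 5), as a description without a test.

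**Figure D3:**
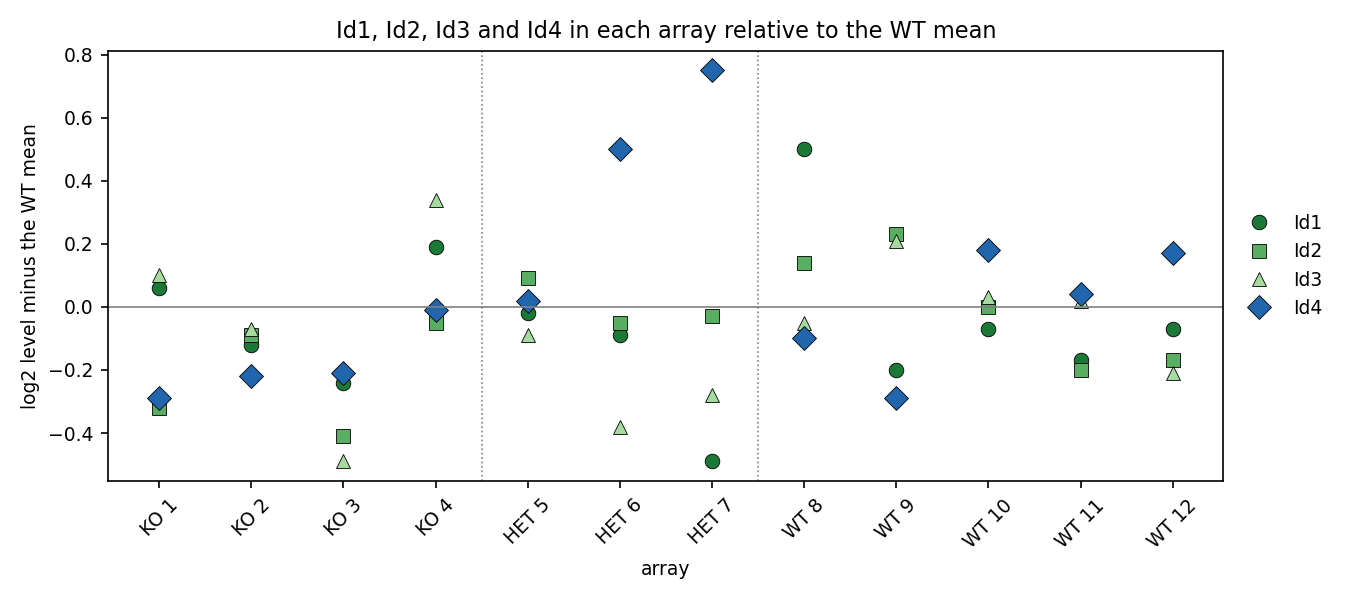
Log2 level of Id1, Id2 (brighter probe), Id3 and Id4 minus the WT mean of the same probe (y axis) in each array (x axis, KO, HET and WT from left to right). Id4 lies at 0.50 in HET 6 and 0.75 in HET 7, where Id1, Id2 and Id3 lie between -0.49 and -0.03.

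Over the 12 arrays, the lowest and the highest array differed 1.99-fold for Id1, 1.56-fold for the brighter and 1.70-fold for the dimmer Id2 probe, 1.77-fold for Id3 and 2.07-fold for Id4. The SD of Id4 over the arrays, 0.32, was at or above that of 87.2 percent of detected probes, that of Id1 (0.24) at or above 70.5 percent, of Id3 (0.24) 69.1 percent, of the dimmer Id2 probe (0.23) 65.8 percent and of the brighter Id2 probe (0.18) 45.4 percent.

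The deposited unnormalized columns carry numbers that divide the arrays into a lower set (KO 1, KO 2, HET 5, HET 6, WT 8 and WT 9) and an upper set of the other 6. Their meaning is not stated in the labels or headers. Id4 differed between KO and HET by -0.52 in the lower set and -0.86 in the upper set, and between HET and WT by 0.46 and 0.62. The only HET array of the upper set was HET 7, which had the highest Id4 reading (6.36). Both upper-set differences of Id4 that involve HET therefore rest on that array alone, and cannot show whether the difference recurs among HET arrays. For the brighter Id2 probe, KO minus WT was -0.39 in the lower and -0.11 in the upper set, and for Id1 it was -0.18 and 0.08, so the Id1 value changed sign between sets. Id3 differed between HET and WT by -0.32 in the lower set and by -0.23 in the upper set, where HET 7 was again the only HET array.

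Relations across the 12 arrays were computed for 30 pairs, the 6 pairs of members and each member with the mean of 6 marker lists, a gene being represented by its brightest detected probe. None passed after Benjamini-Hochberg adjustment over the 30. The closest was Id4 with the endothelial cell list, 15 of 16 of whose genes were measured (Kdr was not detected), with Pearson r = -0.69 (permutation p = 0.012, adjusted 0.36) and Spearman rho = -0.55 (permutation p = 0.066, adjusted 0.66). It was r = -0.51 without HET 7 and HET 5, the arrays farthest from the list median, and -0.74 and -0.56 in the lower and upper sets of arrays.

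Id4 and the immediate early gene list, whose genes respond to handling of tissue (16 of 23 measured), had r = -0.63 (permutation p = 0.030, adjusted 0.45) and rho = -0.62 (permutation p = 0.037, adjusted 0.66), r = -0.37 without WT 9 and HET 7, and r = -0.63 and -0.51 in the lower and upper sets. The endothelial list mean relative to WT was -0.12 to 0.12 in KO, -0.28 to 0.13 in HET and -0.13 to 0.08 in WT, and the immediate early list mean -0.20 to 0.14 in KO, -0.39 to -0.02 in HET and -0.31 to 0.47 in WT. Their part in the Id4 readings was not tested.

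With neither of the germ cell lists examined did Id4 have a relation that passed, and for both the sign of r differed between the sets of arrays. The relation of Id4 with the list of differentiating spermatogonia was not computed. Of 21 genes of undifferentiated spermatogonia, the cells in which Id4 is known to be expressed, 14 were measured, and Pax7, Eomes, Shisa6, Taf4b, Tspan8 and Egr3 were not detected. The list mean was -0.13 to 0.16 in KO, -0.31 to 0.20 in HET and -0.21 to 0.10 in WT, and HET 6 and HET 7, the arrays with the highest Id4, held its highest and its lowest value (0.197 and -0.307). Id4 and this list had r = -0.37 (permutation p = 0.24, adjusted 0.55) and rho = -0.23 (permutation p = 0.47, adjusted 0.83), r = 0.33 without HET 7 and WT 12, and 0.49 and -0.61 in the lower and upper sets. With the meiotic prophase list (14 of 20 measured), whose mean was also lowest in HET 6 and highest in HET 7, Id4 had r = 0.27 (permutation p = 0.40, adjusted 0.70) and rho = 0.15 (permutation p = 0.65, adjusted 0.85). That value was -0.68 without HET 7 and WT 12, and -0.79 and 0.74 in the lower and upper sets, so its sign depended on the arrays used.

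**Figure D4:**
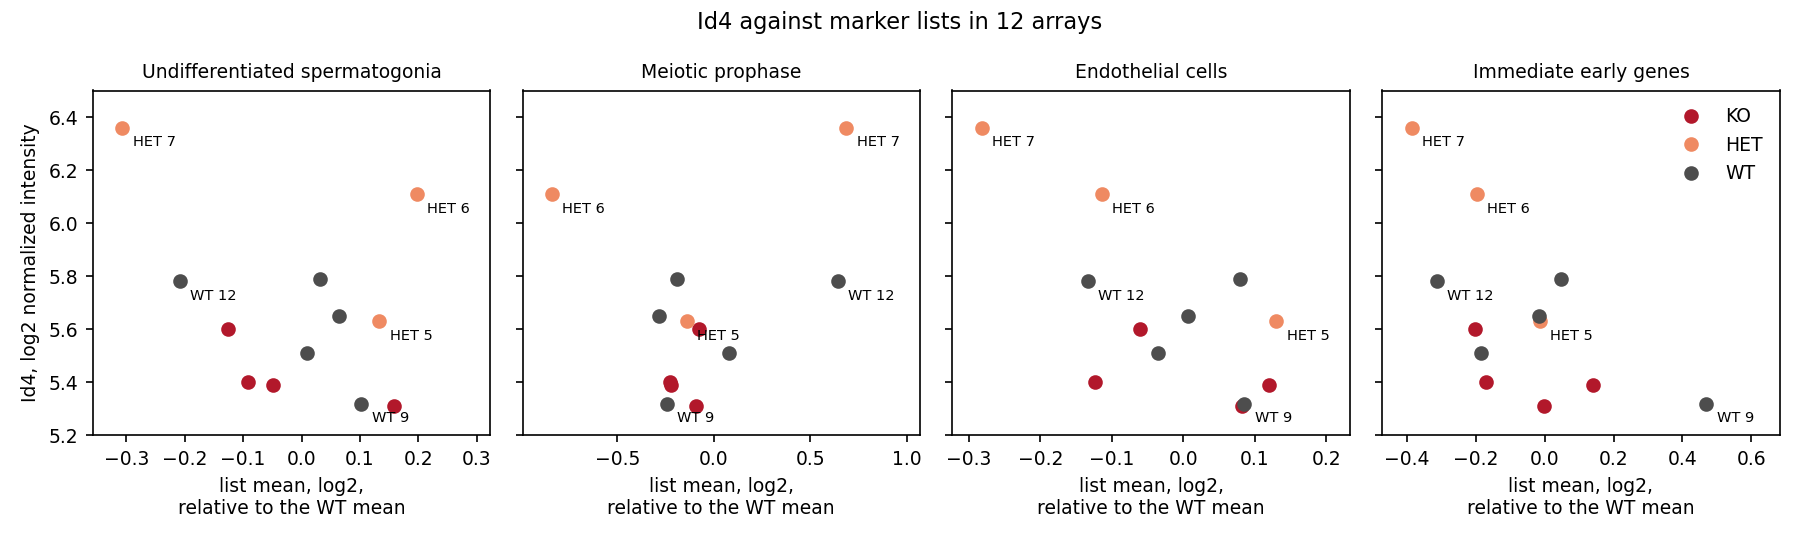
Id4 log2 normalized intensity (y axis) against the mean log2 level of 4 marker lists relative to the WT mean (x axis), 1 point for each of the 12 KO, HET and WT arrays. HET 6 and HET 7 have the highest Id4 values (6.11 and 6.36) and lie at opposite ends of the undifferentiated spermatogonia and meiotic prophase lists, and both lie below 0 on the endothelial and immediate early lists.

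Among the members themselves, Id1 and Id3 had r = 0.41 (permutation p = 0.19, adjusted 0.55) and rho = 0.46 (permutation p = 0.14, adjusted 0.66), with r = 0.55 without WT 8 and HET 7, but -0.03 in the lower and 0.75 in the upper set. Id3 and Id4 had r = -0.43 (permutation p = 0.17, adjusted 0.55) and rho = -0.44 (permutation p = 0.15, adjusted 0.66), -0.82 without KO 3 and KO 4, and -0.92 and -0.11 in the lower and upper sets. Id3 and the endothelial list had r = 0.55 (permutation p = 0.067, adjusted 0.55) and rho = 0.50 (permutation p = 0.10, adjusted 0.66), 0.58 without HET 7 and HET 5, and 0.64 and 0.55 in the lower and upper sets. Id1 with the same list had r = 0.31 (permutation p = 0.32, adjusted 0.65) and rho = 0.28 (permutation p = 0.38, adjusted 0.83), -0.08 without HET 7 and HET 5, and -0.35 and 0.61 in the lower and upper sets.

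The genes whose levels ran most like each member over the 12 arrays are given by Pearson r, as a description, since each is the highest of 11075 genes. For Id1 the closest was Tie1, a receptor tyrosine kinase of endothelial cells (r = 0.89), then Get4, Fcho1 and Faap24 (0.85, 0.84 and 0.84). For Id3 it was Igfbp4, a secreted binding protein of insulin-like growth factors (r = 0.93), then Ddr2, a collagen receptor, Ltbp4, which binds latent TGF-beta in the matrix, and Tbc1d8b (0.85, 0.84 and 0.84). For the brighter Id2 probe it was Tpx2, a spindle assembly factor (r = 0.82, detected on 11 arrays), then Enpp6, Cdc42ep4 and the pseudogene-style entry Gpr137b-ps (0.78, 0.75 and 0.75). Gpr137b-ps, detected on 10 arrays, ranged over the arrays as widely as 4.57 to 8.23. For Id4 it was the aminopeptidase gene Rnpep (r = 0.93), then Trnt1, a tRNA-modifying enzyme, Uqcrc2, a subunit of respiratory complex III, and the noncoding RNA Tug1 (0.91, 0.91 and 0.89).

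All 4 genes named as closest to Id4 had their highest group mean in HET, as Id4 did. They were chosen by correlation with Id4 over the same arrays, so this follows from the choice and adds no support. Rnpep averaged 7.97 in KO, 8.57 in HET and 7.91 in WT, and Tug1 averaged 8.53 in KO, 9.11 in HET and 8.69 in WT. Id4 had an r over 0.8 with 82 genes and under -0.8 with 93, against 8 and 4 for Id1, 1 and 0 for Id2, and 11 and 4 for Id3. These arrays include HET 6 and HET 7, which stand apart over all probes.

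The 3 E protein genes, whose products ID proteins sequester, were all measured. Of these, 0 passed in any comparison and 3 were higher in KO than in WT, with a median difference of 0.151, where the median over all 11076 genes was 0.002 and 50.5 percent lay above 0. Tcf12 averaged 7.19 ± 0.13 in KO, 7.14 ± 0.45 in HET and 7.03 ± 0.06 in WT. Tcf3, which encodes E12 and E47, averaged 7.07 ± 0.12 in KO, 7.06 ± 0.34 in HET and 6.92 ± 0.22 in WT. Tcf4 averaged 11.24 ± 0.10 in KO, 11.11 ± 0.13 in HET and 11.21 ± 0.14 in WT (SD, n = 4, 3 and 5).

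Of 23 tissue-restricted bHLH genes, 12 were measured and 0 passed in any comparison. Median differences were 0.081 in KO minus WT and -0.072 in HET minus WT. Genes named from the bHLH, Notch, BMP and kinase inhibitor lists have the smallest p-values of their list. Groups that lie apart among them therefore follow in part from that choice. Of all probes, 1.83 percent did not overlap in KO against WT and 2.86 percent in HET against WT. Neurog3, a bHLH factor of progenitor spermatogonia, averaged 7.61 ± 0.08 in KO, 8.05 ± 0.12 in HET and 7.86 ± 0.19 in WT. Every KO array lay below every HET array for Neurog3, which held for 2.46 percent of all probes. Its KO minus HET difference was -0.44 (SE 0.12, limma adjusted p = 0.62). In that comparison 10 of the 12 measured genes of the list lay above 0 and 2 below, where 53 percent of all genes lay above 0. Figla, a transcription factor known from oocytes, averaged 6.65 ± 0.22 in KO, 6.23 ± 0.53 in HET and 6.85 ± 0.16 in WT, each HET array below every WT array (limma adjusted p = 0.47). Ferd3l, near background in every group, averaged 5.16 ± 0.06 in KO, 5.11 ± 0.27 in HET and 4.94 ± 0.13 in WT (KO minus WT 0.22, SE 0.11). It was detected on 2 of 4 KO, 2 of 3 HET and 0 of 5 WT arrays.

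The Hes and Hey genes, bHLH repressors induced by Notch, had 5 of 6 members measured and 0 past the threshold. Hes1 averaged 8.63 ± 0.06 in KO, 8.51 ± 0.10 in HET and 8.40 ± 0.14 in WT, with every KO array above every WT array (KO minus WT 0.23, SE 0.09, limma adjusted p = 1). Hes5, near background with 4 of 4 KO, 1 of 3 HET and 5 of 5 WT arrays detected, averaged 5.34 ± 0.15 in KO, 5.00 ± 0.12 in HET and 5.45 ± 0.11 in WT (HET minus WT -0.46, SE 0.11, limma adjusted p = 0.47). Hey2 averaged 5.27 ± 0.07 in KO, 5.49 ± 0.19 in HET and 5.19 ± 0.22 in WT. It was also near background, detected on 3 of 4 KO, 3 of 3 HET and 3 of 5 WT arrays.

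In the BMP pathway, which induces Id genes, 5 of 14 ligand genes, 8 of 13 receptor and SMAD genes and 9 of 16 antagonist and feedback inhibitor genes were measured, and 0 passed in any comparison. Median KO minus WT differences were 0.108, -0.001 and 0.019 for these lists, and median HET minus WT differences were -0.079, -0.029 and 0.042. Bmp8a, a ligand of germ cells, averaged 5.43 ± 0.09 in KO, 5.27 ± 0.15 in HET and 5.06 ± 0.18 in WT, every KO array above every WT array (KO minus WT 0.36, SE 0.11, limma adjusted p = 1), and it was detected on 4 of 4 KO, 2 of 3 HET and 3 of 5 WT arrays. Amh, a Sertoli cell ligand that signals through the same SMADs, averaged 9.21 ± 0.19 in KO, 8.86 ± 0.59 in HET and 9.21 ± 0.53 in WT. Bmp7 averaged 8.50 ± 0.08 in KO, 8.33 ± 0.16 in HET and 8.39 ± 0.15 in WT.

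Smad5, a SMAD that carries the BMP signal, averaged 8.72 ± 0.03 in KO, 8.83 ± 0.07 in HET and 8.89 ± 0.04 in WT, every KO array below every WT array (KO minus WT -0.17, SE 0.07, limma adjusted p = 1), but its other detected probe differed in the opposite direction. The receptor gene Bmpr1a averaged 8.85 ± 0.09 in KO, 9.01 ± 0.63 in HET and 8.65 ± 0.15 in WT, with its other probe opposite in sign for HET minus WT, and Eng, a co-receptor of endothelial cells, 7.90 ± 0.29 in KO, 7.70 ± 0.31 in HET and 7.92 ± 0.14 in WT. Fstl3, which binds activins, averaged 7.74 ± 0.20 in KO, 7.53 ± 0.20 in HET and 7.38 ± 0.28 in WT. Fstl1 averaged 9.58 ± 0.06 in KO, 9.50 ± 0.06 in HET and 9.72 ± 0.21 in WT. The BMP antagonist gene Chrd averaged 5.50 ± 0.13 in KO, 5.30 ± 0.20 in HET and 5.49 ± 0.13 in WT. Chrd was near background, detected on 4 of 4 KO, 2 of 3 HET and 4 of 5 WT arrays.

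The cyclin-dependent kinase inhibitors, some of which E proteins activate and ID proteins thereby hold down, were all measured (7 of 7) and 0 passed. Cdkn1b, which encodes p27, averaged 5.09 ± 0.12 in KO, 5.32 ± 0.24 in HET and 4.89 ± 0.11 in WT (HET minus WT 0.43, SE 0.12, limma adjusted p = 0.47), and was detected on 1 of 4 KO, 3 of 3 HET and 1 of 5 WT arrays. Cdkn2a averaged 8.19 ± 0.09 in KO, 7.95 ± 0.38 in HET and 8.19 ± 0.18 in WT, and Cdkn2b 6.59 ± 0.45 in KO, 6.95 ± 0.20 in HET and 6.55 ± 0.54 in WT. Median differences were -0.007 in KO minus WT and 0.072 in HET minus WT.

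Genes of undifferentiated spermatogonia are named here after their values were seen, the first 3 for having the smallest p-values of their list. Zbtb16, a transcription factor of stem and progenitor spermatogonia, had every HET array above every WT and every KO array. Of all probes, 2.86 percent did not overlap in HET against WT, and 2.46 percent had KO below HET. Zbtb16 had a HET minus WT difference of 0.35 (SE 0.11) and a KO minus HET difference of -0.24 (SE 0.11). Foxo1 had a HET minus WT difference of 0.26 (SE 0.09), with its other detected probe opposite in sign, and Cdh1, which encodes E-cadherin, one of -0.42 (SE 0.10). Each of these had limma adjusted p = 0.47 in HET minus WT. Gfra1, the GDNF receptor gene of spermatogonial stem cells, differed by 0.11 (SE 0.17) in KO minus WT and 0.17 (SE 0.19) in HET minus WT. Cdh1 and Gfra1 were near background. Cdh1 was detected on 2 of 4 KO, 1 of 3 HET and 5 of 5 WT arrays, and Gfra1 on 3 of 4, 2 of 3 and 3 of 5. Over the 14 measured genes the median was -0.041 in KO minus WT, with 5 above 0, and -0.021 in HET minus WT, with 6 above 0.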

How the data were processed

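The authors deposited unnormalized intensities and detection p-values for 45281 probes on 12 arrays, per the file headers, and processed intensities of the same arrays in the series matrix. Scanner software and genome build are not given in the sources used here. Of all probes, 34885 had 1 gene symbol, 18 several and 10378 none, with 0 symbols changed by Entrez identifier. No 2 arrays held identical values. Intensities were corrected by limma's neqc (normexp using detection p-values, offset of 16, quantile normalization, log2). The fit used 20170 probes, those with a detection p-value below 0.05 on 3 arrays or more, and was 1 lmFit and eBayes model over all arrays, with Benjamini-Hochberg adjustment and a threshold of 0.05, in R 4.3.3 with limma 3.58.1. The number of arrays limits precision. For a gene in a list, the brightest detected probe was taken. Members and lists were chosen with earlier results of these data known. Named genes were all Id probes, up to 3 genes per list with the smallest p in KO or HET minus WT (pathway lists only), Rb1, and the 4 genes most like each member, leaving out Riken, Gm, LOC, EST and clone names. Genes of undifferentiated spermatogonia were outside that rule. Correlations used 100000 permutations. Sohlh2, Amh, Egr2 and Egr3 were each in 2 lists. Alternatives were other background and scaling steps, filters, fits and left-out arrays.

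Other marker lists were measured for admixture, with 0 genes past the threshold in each. The 15 macrophage entries are symbols, and Emr1, not on the array, is an older name of Adgre1, which was measured. Median KO minus WT and HET minus WT differences were 0.127 and 0.202 for differentiating spermatogonia (5 of 7 measured), -0.092 and -0.128 for meiotic prophase, -0.008 and -0.071 for Sertoli cells (18 of 24), -0.225 and -0.356 for Leydig cells (6 of 11), 0.14 and 0.063 for peritubular myoid cells (9 of 10), -0.024 and -0.097 for endothelial cells, -0.141 and -0.142 for macrophages (12 of 15), and -0.076 and -0.176 for immediate early genes.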

Additional observations from a re-analysis of the deposited data

Results flagged for a closer look

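Id1 in WT 8 read 9.43, against 8.72 to 8.85 in the other 4 WT arrays, a gap that was 0.807 of the whole range of the group (Dixon's critical value for 5 samples is 0.71). It was the only one of the 5 detected Id probes with an array set apart in this way in KO or WT, and HET, with 3 arrays, was not tested. Chance flags about 1 in 20 groups. Unnormalized intensity of the Id1 probe was 760 in WT 8, against 459 to 516 in the other WT arrays.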

How the results depend on the processing

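No paired analysis was run because the labels give no pairing between groups. The 15 member differences (5 detected probes, 3 comparisons) gave 362 values over 13 alternative settings and 12 arrays left out in turn. Of these, 344 kept their direction and their side of the threshold, 18 changed sign and 0 came to pass. Part of the 344 could not change sign. Filters on probes, the fit of only 2 groups, another prior, or leaving out an array of the third group all keep the same difference. The count of 344 is therefore no measure of stability. Nor are the values without background correction and the authors' processed values separate checks, since they gave the same numbers for Id4 between HET and WT and between KO and HET. The sign changes were all in differences that had not passed. In KO minus WT, Id1 was 0 with array weights and 0.05 against WT and HET pooled, and ranged from -0.10 to 0.10 with arrays left out. The dimmer Id2 probe was 0.03 and Id3 0.06 against that pooled control, and they ranged from -0.14 to 0.02 and from -0.16 to 0.12. In HET minus WT, the brighter Id2 probe was -0.04 with scaling to the same median and -0.03 with the column number sets as a block, and ranged from -0.04 to 0.06. Without WT 12, HET 6 and HET 7, the dimmer Id2 probe was 0.04 in HET minus WT and -0.16 in KO minus HET, and Id1 was -0.01 in KO minus HET. Id4 kept its direction in every comparison and setting run. Over all probes the count past the threshold was 0 except without HET 5 (range 0 to 167 in HET minus WT and 0 to 55 in KO minus HET with arrays left out, no Id probe among them), and 1 in KO minus WT without WT 12, HET 6 and HET 7. At an unadjusted p under 0.05, 485, 2109 and 1515 probes were called in KO minus WT, HET minus WT and KO minus HET, against 1718, 473 and 401 with array weights, 1530, 3468 and 2892 with no filter on dim probes, 1005, 1203 and 995 with only the 2 groups compared, 1149, 676 and 706 without WT 12, HET 6 and HET 7, and 284, 1082 and 775 with 1 probe per gene, and 311 in KO minus WT with scaling to the same median. With arrays left out in turn they ranged from 335 to 859 (the highest without HET 6), from 853 (without HET 6) to 4780 (without HET 5, 3266 without HET 7) and from 876 (without KO 2, 967 without KO 1, 981 without HET 6) to 4079 (without HET 5). The cause of these changes was not tested. The Id4 probe is near background, and its difference between KO and HET was -0.38 with an offset of 50 and -0.61 with 16.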
